A study of Drosophila melanogaster with 9 samples.

Results

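The depletion of *groucho* (*gro*) and the depletion of *Notch* were compared directly in sorted intestinal stem cells (ISCs) of the adult *Drosophila melanogaster* midgut. Of the 9 RNA-seq libraries in the series, 6 enter the comparison, 3 of *gro-RNAi* and 3 of *Notch-RNAi*, and the 3 control libraries give the level of each gene without either depletion. All 11493 of the 17481 genes in the table with a mean of at least 0.1 FPKM (read fragments scaled to transcript length and to library depth) over the 9 libraries were tested. In *gro-RNAi*, a hairpin against *gro* was expressed with UAS-GFP under Dl-Gal4, the ISC driver, held back by a temperature-sensitive Gal80. *Notch-RNAi* flies expressed a hairpin against *Notch*, and control flies carried the reporter alone and are labelled wild type. The labels give all groups as adults of 5 to 7 days. By the methods, *gro-RNAi* and control flies of 3 to 5 days were moved from a cool to a warm temperature and dissected several days later. The age in the labels may therefore not be the age at dissection. Each library came from the living GFP+ cells of pooled midguts, whose RNA was amplified before sequencing. The sources used here do not name the *gro* line behind these libraries, and the methods of the RNA-seq describe the *gro-RNAi* and control flies only. That *Notch-RNAi* shared their driver, reporter, Gal80, change of temperature and sort is therefore an assumption. The hairpins against *gro* and *Notch* come from different fly stocks. Any other difference between the stocks goes with the group and cannot be told apart from the depletion.

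Notch is a receptor that, once its ligand Delta on a neighbouring cell binds it, sends its intracellular part to the nucleus, where it works with Su(H) to switch on target genes such as the *E(spl)-C*. Gro is a corepressor without DNA binding of its own that silences genes through partners such as the E(spl) and Hairy proteins. In the fly midgut, Notch signalling turns the daughter of an ISC into an enteroblast (EB), the precursor of the absorbing enterocyte (EC). Daughters with little Notch signalling become hormone-making enteroendocrine cells (EEs). Both depletions leave an excess of ISC-like cells, so the direct comparison asks what differs between the 2 kinds of tumour cells beyond the *E(spl)-C*.

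The targeted genes followed their labels. *gro* (3R, 26041736 to 26049911, release 6 of the genome) had 3.69, 13.8 and 9.53 FPKM in *gro-RNAi*, against 39.7, 47.3 and 33.1 FPKM in *Notch-RNAi* and 19.9, 27.8 and 15.3 FPKM in control, and differed by -2.32 ± 0.44 SE on the log2(FPKM + 0.1) scale (limma, adjusted p = 0.019). *N*, the gene of Notch, had 32.2, 32.1 and 33.0 FPKM in *gro-RNAi*, against 13.9, 16.1 and 9.78 FPKM in *Notch-RNAi* and 40.9, 36.9 and 28.5 FPKM in control (log2 difference 1.31 ± 0.22 SE, adjusted p = 0.012). The groups did not overlap for either gene. Against control, the log2 difference of *gro* was -1.36 in *gro-RNAi* (limma, adjusted p = 0.094), which was not called. It was 0.96 in *Notch-RNAi* (adjusted p = 0.13), so the difference between the depletions includes the higher level in *Notch-RNAi*. For *N* the difference from control was -1.42 in *Notch-RNAi* (adjusted p = 0.0024) and -0.11 in *gro-RNAi* (adjusted p = 0.79). *gro* overlaps *Exo84* on the other strand, which did not follow it (log2 difference -0.19, adjusted p = 0.51). The *gro* level of *gro-RNAi* replicate 1 was the lowest of its group, and this library stood apart in other genes too. The hormone gene *Orcokinin* was at 1971, 224 and 205 FPKM in the 3 *gro-RNAi* libraries, and the synaptotagmin gene *Syt4* at 9.49, 0.0425 and 0.0650 FPKM. *Notch-RNAi* replicate 3 lay apart from the other *Notch-RNAi* libraries in single genes, such as the cytokine gene *upd2* below. Low FPKM values lie on multiples of what 1 read is worth, which put the depth at 7610000 to 13900000 reads in *gro-RNAi*, 16200000 to 18800000 in *Notch-RNAi* and 11100000 to 12500000 in control, and 11342 to 12139, 12574 to 13086 and 11629 to 11811 genes had a value above 0 in these groups. A gene of a few reads is therefore more likely to be detected in *Notch-RNAi*. A gene at 0 in the other groups, or at values too low for the filter, reached the mean of 0.1 FPKM through the *Notch-RNAi* libraries alone. For such a gene the p-value is no separate support for the difference. The RNA lncRNA:CR40469 alone held 5.85% to 14.0% of the summed FPKM in *gro-RNAi*, 2.23% to 3.91% in *Notch-RNAi* and 14.4% to 16.5% in control.

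Of the 11493 genes, 299 (2.6%) were called higher and 558 (4.86%) lower in *gro-RNAi* than in *Notch-RNAi* at an adjusted p under 0.05 (limma). In all of them the 3 *gro-RNAi* libraries lay on one side of the 3 *Notch-RNAi* libraries. Among all tested genes the *gro-RNAi* libraries were all higher in 10.9% and all lower in 22.3%. The median log2 difference over the tested genes was -0.18, so a value of 0 stands 0.18 above the typical gene. With every library centred on the same median, 436 genes were called higher and 422 lower, so that higher calls made up 50.8% of the total against 34.9% as deposited, and with quantile normalization the share was 55.5%. The numbers also depended on single libraries. They were 70 higher and 67 lower without *Notch-RNAi* replicate 1, 71 and 84 without *Notch-RNAi* replicate 2, 90 and 124 without *gro-RNAi* replicate 2, and 121 and 155 without *gro-RNAi* replicate 3. Without *gro-RNAi* replicate 1 they were 306 and 858, and without both *gro-RNAi* replicate 1 and *Notch-RNAi* replicate 3, a setting chosen after seeing the data, 317 and 840. Among the called genes named below, *phyl*, *mex1*, *put*, *PGRP-SA*, *GstD5*, *grim*, *Pi3K92E*, *ncd*, *mRpL32*, *ATPsynC*, *ND-B14.5A*, *exu*, *CG16826* and FBgn0085364 kept their call in 6 to 9 of 20 alternative settings, the others in 10 or more. Against control, 720 genes (6.26%) were higher and 141 (1.23%) lower in *gro-RNAi*, and 2806 (24.4%) were higher and 493 (4.29%) lower in *Notch-RNAi*. The median log2 difference from control over all tested genes was 0.27 in *gro-RNAi* and 0.46 in *Notch-RNAi*. A value of 0 against control therefore lies below the typical gene, and counts against control with centred libraries are not given. Both of these comparisons use the same 3 control libraries, so their values are set side by side and not correlated. With 3 libraries against 3, an exact permutation test of a single gene cannot give a two-sided p below 0.1, and every called gene reached that value. Of 183 genes examined in detail, 83 overlap another gene, and the sources used here do not say that strand was used in counting, so reads of such a pair cannot be told apart.

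**Figure D1:**
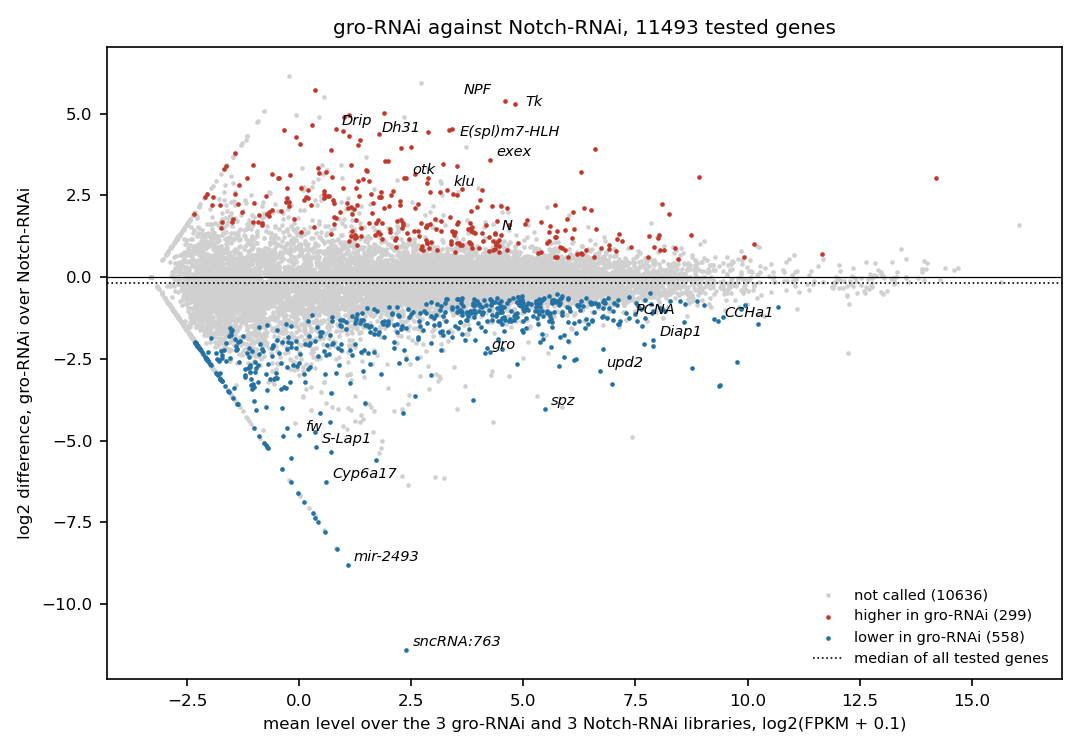
Log2 difference of *gro-RNAi* over *Notch-RNAi* (vertical axis) against the mean level over the 6 libraries, log2(FPKM + 0.1) (horizontal axis), with 1 point for each of the 11493 tested genes. The 299 genes called higher in *gro-RNAi* are red, the 558 called lower are blue, and the dotted line marks the median of -0.18. The straight lower edge at the left holds genes that are listed at 0 in all *gro-RNAi* libraries.

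The *E(spl)-C* holds the best known targets of Notch and separated the groups. Of its 11 genes, all tested, 8 were called higher in *gro-RNAi*, and in 9 the groups did not overlap, all in that direction. The shares over all genes were 2.6% and 10.9%. The median log2 difference of the 11 genes was 3.07. The 4 other repressors of the Hairy and Hey type, *hry*, *dpn*, *Hey* and *cwo*, had no called member (limma, 2 at an unadjusted p under 0.05). *Hey* had 1.45, 0.416 and 0.254 FPKM in *gro-RNAi*, against 0.0360, 0.0783 and 0.135 FPKM in *Notch-RNAi* (log2 difference 1.88 ± 0.59 SE, adjusted p = 0.087). The values of *dpn* overlapped, at 5.15, 3.97 and 1.75 FPKM in *gro-RNAi* and 0.612, 0.398 and 2.65 FPKM in *Notch-RNAi*. Of 22 tested genes of the Notch machinery, only *gro* and *N* themselves were called. *Su(H)*, the DNA-binding partner of Notch, had 4.48, 3.81 and 2.71 FPKM in *gro-RNAi*, against 3.09, 3.61 and 3.20 FPKM in *Notch-RNAi*. The gene of the ligand Delta, *Dl*, had 69.7, 30.8 and 25.6 FPKM in *gro-RNAi*, against 38.8, 46.7 and 54.7 FPKM in *Notch-RNAi* and 6.56, 7.09 and 3.93 FPKM in control. It was called higher than control in both depletions (log2 2.72, adjusted p = 0.0048 in *gro-RNAi*, and 3.00, adjusted p = 0.0011 in *Notch-RNAi*), and between the depletions the difference was -0.28 ± 0.38 SE with adjusted p = 0.68.

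Of 13 tested peptide hormone genes of EEs, 3 were called higher in *gro-RNAi* by over 4 on the log2 scale and 1 lower, beside 2.6% called higher and 4.86% called lower over all genes. The genes *Tk* (tachykinin), *NPF* (neuropeptide F) and *Dh31* (diuretic hormone 31) mark the class of EEs that makes tachykinin, and *AstC*, *CCHa1* and *Orcokinin* mark other EEs. *Tk* (3R, 11994175 to 12005473) had 209, 172 and 148 FPKM in *gro-RNAi*, against 4.82, 3.39 and 5.10 FPKM in *Notch-RNAi* and 138, 55.4 and 110.3 FPKM in control (log2 difference 5.29 ± 0.32 SE, adjusted p = 6.4e-05). *NPF* had 443, 57.5 and 149 FPKM in *gro-RNAi*, against 4.63, 3.92 and 2.57 FPKM in *Notch-RNAi* and 299.6, 130.3 and 471 FPKM in control (log2 difference 5.40 ± 0.70 SE, adjusted p = 0.0042). *Dh31* had 17.2, 54.3 and 40.9 FPKM in *gro-RNAi*, against 2.11, 1.34 and 1.10 FPKM in *Notch-RNAi* and 29.7, 20.0 and 17.96 FPKM in control (log2 difference 4.43 ± 0.42 SE, adjusted p = 8.3e-04). For all 3 genes every *gro-RNAi* library lay far above every *Notch-RNAi* library, which were the lowest of the 9. Against control, the 3 genes were lower in *Notch-RNAi*, with log2 differences of -4.40, -6.16 and -3.82 and adjusted p = 1.2e-04, 7.2e-04 and 6.8e-04. In *gro-RNAi* they were 0.89, -0.76 and 0.61, none of which passed the test.

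*CCHa1* ran the other way. It had 472, 444 and 323 FPKM in *gro-RNAi*, against 1266, 1106 and 786 FPKM in *Notch-RNAi* and 234, 187 and 269 FPKM in control (log2 difference -1.34 ± 0.23 SE, adjusted p = 0.014). The *gro-RNAi* libraries lay between the other groups, and the difference from control was called in *Notch-RNAi* (log2 2.18, adjusted p = 6.1e-04) and not in *gro-RNAi* (log2 0.84, adjusted p = 0.06). The other 9 hormone genes were not called, and their groups overlapped in most. *AstC* had 1466, 753 and 669 FPKM in *gro-RNAi*, against 943, 1047 and 1268 FPKM in *Notch-RNAi*. *AstA* had 68.3, 319.9 and 262 FPKM in *gro-RNAi*, against 258, 211 and 116 FPKM in *Notch-RNAi*, and *CCHa2* had 674, 327 and 346 FPKM in *gro-RNAi*, against 531, 690.1 and 1145 FPKM in *Notch-RNAi*. The 3 *gro-RNAi* libraries spread widely in several of these genes. Replicate 1 was the highest for *Orcokinin* and *AstC* and the lowest for *AstA*, *Mip* and *Dh31*. The median over the 13 genes was -0.05, beside -0.18 over all genes. RNA of EE hormones, and of the EC genes below, was present in all 9 libraries, although the sort aimed at ISCs. In bulk libraries, fewer cells of a type and less RNA per cell cannot be told apart.

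Of 16 tested genes that specify EEs, 2 were called lower and 1 higher in *gro-RNAi*, beside 4.86% and 2.6% over all genes. Their median was -0.79, beside -0.18 over all genes. *phyl*, which works with Sina in the degradation of the repressor Ttk and so allows sensory and EE fates, had 7.99, 1.36 and 1.44 FPKM in *gro-RNAi*, against 15.8, 19.1 and 10.1 FPKM in *Notch-RNAi* and 0.259, 0.413 and 0.501 FPKM in control (log2 difference -2.47 ± 0.62 SE, adjusted p = 0.044). *dimm*, a bHLH factor of peptide-secreting cells, had 1.14, 0.408 and 0.366 FPKM in *gro-RNAi*, against 3.61, 3.10 and 2.71 FPKM in *Notch-RNAi* (log2 difference -2.28 ± 0.42 SE, adjusted p = 0.017). *mirr*, a homeobox gene, was the one called member that was higher in *gro-RNAi*, at 3.79, 0.835 and 1.48 FPKM in *gro-RNAi*, against 0.231, 0.299 and 0.271 FPKM in *Notch-RNAi* (log2 difference 2.29 ± 0.50 SE, adjusted p = 0.03). Of the 16 genes, 4 had a difference above 0, beside 4311 of the 11493 tested genes. In 4 of the 16 all *gro-RNAi* libraries were lower than all *Notch-RNAi* libraries and in 1 all were higher, beside 22.3% and 10.9% of all genes. The factor *Poxn* had 1.34, 0.116 and 0.178 FPKM in *gro-RNAi*, against 2.496, 1.86 and 4.09 FPKM in *Notch-RNAi* (log2 -2.65, adjusted p = 0.06). The EE fate gene *pros* overlapped, at 8.33, 4.03 and 3.498 FPKM in *gro-RNAi* and 7.85, 10.4 and 8.07 FPKM in *Notch-RNAi*. The proneural gene *ase* had 0.998, 0.111 and 0.339 FPKM in *gro-RNAi*, against 1.34, 1.07 and 1.10 FPKM in *Notch-RNAi* (-1.44, adjusted p = 0.15), and *sc* overlapped at 4.75, 2.4995 and 1.45 FPKM in *gro-RNAi* and 4.85, 6.12 and 4.14 FPKM in *Notch-RNAi*. In *phyl*, *dimm*, *Poxn*, *ase* and *sc* alike, *gro-RNAi* replicate 1 was the highest of its group.

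The machinery of secretion showed no common direction. Of 21 tested genes of peptide processing and vesicle release, 1 was called higher and 1 lower, beside 2.6% and 4.86% over all genes. *unc-104*, the kinesin that carries vesicles along axons, had 33.2, 43.0 and 53.6 FPKM in *gro-RNAi*, against 7.48, 7.76 and 4.96 FPKM in *Notch-RNAi* and 9.31, 5.06 and 11.4 FPKM in control (log2 difference 2.67 ± 0.33 SE, adjusted p = 0.0035). Against control its log2 difference was 2.37 in *gro-RNAi* (adjusted p = 0.0049) and -0.30 in *Notch-RNAi* (adjusted p = 0.53). *unc-104* overlaps *CG5348* on the other strand, which is among the largest differences below, and reads of these genes cannot be told apart. *Syx1A*, a syntaxin of the release machinery, had 108, 57.0 and 63.0 FPKM in *gro-RNAi*, against 165, 197 and 141 FPKM in *Notch-RNAi* (log2 difference -1.19 ± 0.28 SE, adjusted p = 0.035). *elav*, an RNA-binding protein of neurons, had 7.78, 7.27 and 4.91 FPKM in *gro-RNAi*, against 16.5, 22.6 and 16.9 FPKM in *Notch-RNAi* (-1.49, adjusted p = 0.016). The acetylcholine receptor subunit *nAChRbeta1* had 1.41, 0.605 and 0.700 FPKM in *gro-RNAi*, against 3.55, 4.94 and 3.06 FPKM in *Notch-RNAi* (-2.03, adjusted p = 0.016), the called gene of 8 tested subunits. Of 7 tested neuron markers only *elav* was called, and the list summed to 15.2 to 29.8 FPKM in *gro-RNAi*, 37.3 to 48.3 FPKM in *Notch-RNAi* and 10.5 to 13.9 FPKM in control. The part of nerve cells in these differences was not tested.

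**Figure D2:**
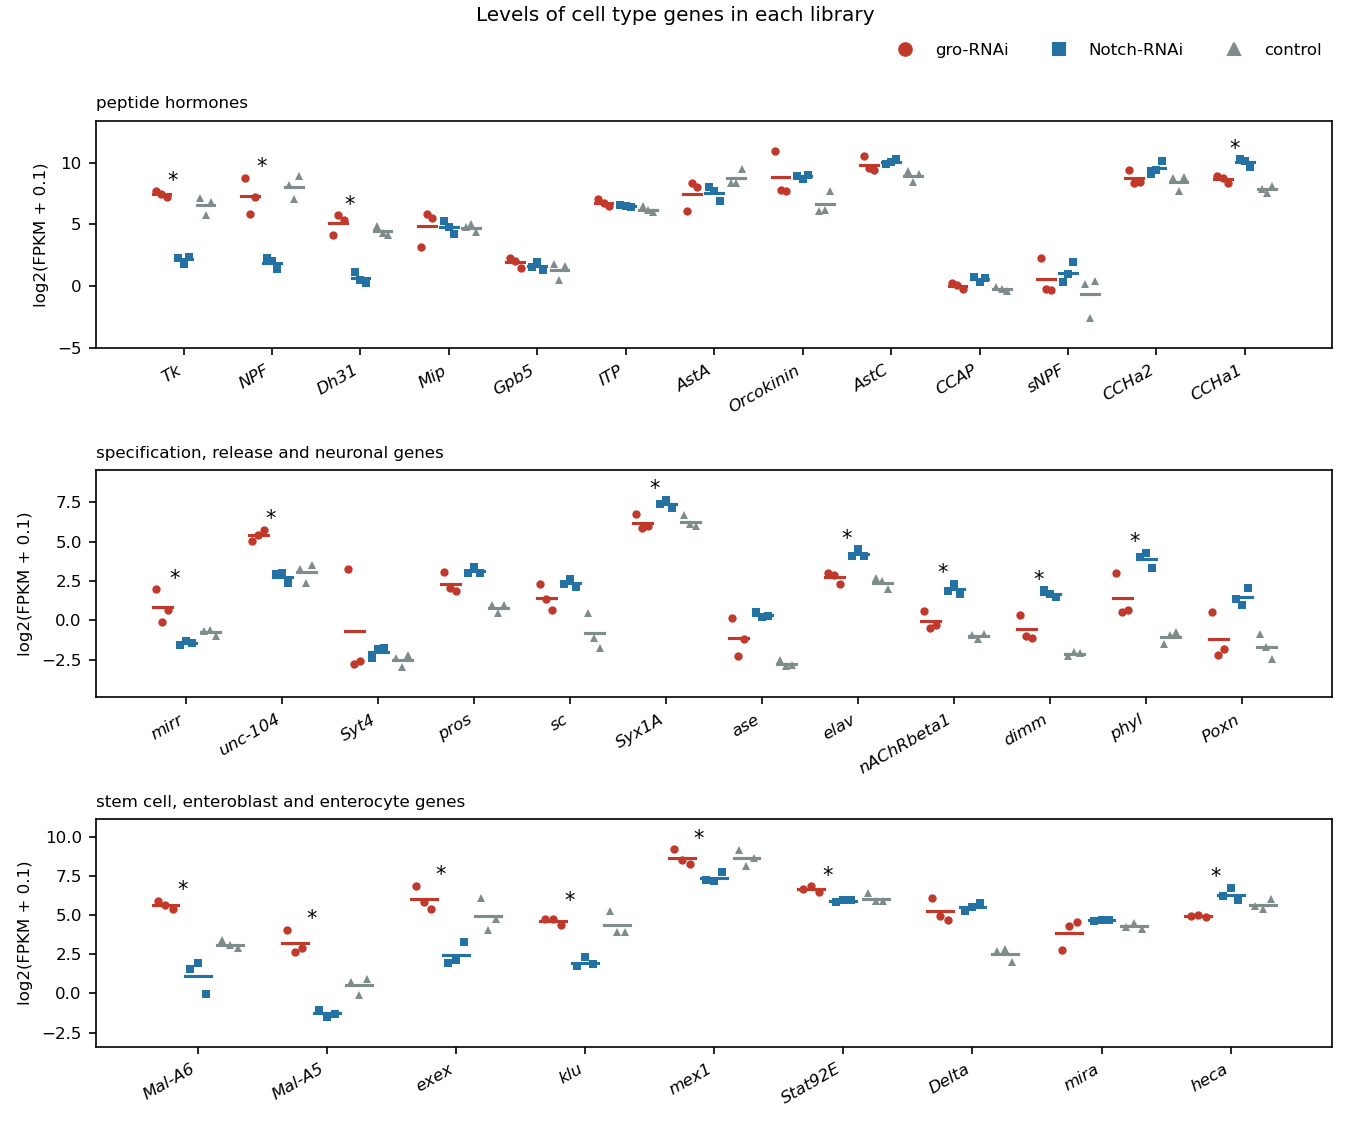
Level of each gene, log2(FPKM + 0.1), in each library. Within a gene, *gro-RNAi* stands left (red circles), *Notch-RNAi* in the middle (blue squares) and control right (grey triangles), with 3 libraries each in the order of their replicate numbers, a bar at the group mean and a star over genes called between *gro-RNAi* and *Notch-RNAi*. *Tk*, *NPF*, *Dh31*, *Mal-A6*, *exex* and *klu* are high in *gro-RNAi* and low in *Notch-RNAi*, and *CCHa1*, *phyl* and *dimm* are higher in *Notch-RNAi*.

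Of 17 tested genes of progenitors and EBs, 2 were called higher and 1 lower in *gro-RNAi*, beside 2.6% and 4.86% over all genes. *klu*, a zinc-finger gene of EBs, had 27.2, 27.4 and 20.3 FPKM in *gro-RNAi*, against 3.20, 4.87 and 3.61 FPKM in *Notch-RNAi* and 38.1, 15.1 and 15.04 FPKM in control (log2 difference 2.66 ± 0.36 SE, adjusted p = 0.0051). It was lower than control in *Notch-RNAi* (log2 -2.39, adjusted p = 0.0023), and was at 0.27 in *gro-RNAi* (adjusted p = 0.69). *Stat92E*, the transcription factor of the JAK-STAT pathway, was moderately higher at 101, 114.6 and 90.7 FPKM in *gro-RNAi*, against 56.5, 61.7 and 63.3 FPKM in *Notch-RNAi* (0.75, adjusted p = 0.036). *heca*, known as *headcase*, was lower, with 31.1, 31.7 and 29.6 FPKM in *gro-RNAi*, against 74.8, 108 and 62.7 FPKM in *Notch-RNAi* (-1.37, adjusted p = 0.013). In all 3 genes the groups were apart, by the least in *Stat92E*. The ISC gene *mira* had 6.76, 19.6 and 23.6 FPKM in *gro-RNAi*, against 24.99, 25.5 and 26.2 FPKM in *Notch-RNAi*, with no overlap and no call (-0.80, adjusted p = 0.24), *gro-RNAi* replicate 1 being the lowest.

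Of 16 tested genes of EC and region identity, 2 were called, both higher in *gro-RNAi*, beside 2.6% called higher over all genes. The homeobox gene *exex* had 116, 58.5 and 42.7 FPKM in *gro-RNAi*, against 3.80, 4.38 and 9.72 FPKM in *Notch-RNAi* and 68.4, 16.4 and 27.3 FPKM in control (log2 difference 3.57 ± 0.57 SE, adjusted p = 0.01). *mex1*, a small membrane protein of the midgut, had 588, 375 and 305 FPKM in *gro-RNAi*, against 149, 146 and 217 FPKM in *Notch-RNAi* (1.28, adjusted p = 0.04), and this call was lost without *gro-RNAi* replicate 1 (adjusted p = 0.074). In 8 of the 16 genes all *gro-RNAi* libraries were higher than all *Notch-RNAi* libraries and in 1 all were lower, beside 10.9% and 22.3% of all genes, and the median was 0.86. The 11 markers of ECs summed to 528 to 1026 FPKM in *gro-RNAi*, 328 to 437 FPKM in *Notch-RNAi* and 529.5 to 857 FPKM in control, and the part of EC RNA in these differences was not tested. Digestive enzymes as a whole showed no such shift. Of 55 tested, only the maltases *Mal-A5* and *Mal-A6* were called, and the median was -0.29, below that of all genes. *Mal-A6* had 60.1, 49.5 and 42.7 FPKM in *gro-RNAi*, against 2.85, 3.68 and 0.859 FPKM in *Notch-RNAi* and 10.4, 8.31 and 7.23 FPKM in control (log2 difference 4.52 ± 0.45 SE, adjusted p = 0.0011). *Mal-A5* had 16.6, 6.08 and 7.50 FPKM in *gro-RNAi*, against 0.389, 0.260 and 0.308 FPKM in *Notch-RNAi* and 1.56, 0.841 and 1.84 FPKM in control (4.47, adjusted p = 8.4e-04). Both were called higher than control in *gro-RNAi* and lower than control in *Notch-RNAi*. They lie in a cluster of related maltase genes, so that reads shared between copies can move between them. Their neighbour *Mal-A1* had 43.6, 13.4 and 9.76 FPKM in *gro-RNAi*, against 8.98, 6.59 and 1.70 FPKM in *Notch-RNAi* without passing the test (1.91, adjusted p = 0.19).

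Single genes of ligands and receptors differed in both directions. *spz* (Spätzle, 3R, 27064990 to 27070070), the gene of the ligand of the Toll receptor, had 18.7, 8.58 and 8.08 FPKM in *gro-RNAi*, against 148, 184 and 213 FPKM in *Notch-RNAi* and 4.20, 4.37 and 6.10 FPKM in control (log2 difference -4.03 ± 0.32 SE, adjusted p = 2.2e-04). The *gro-RNAi* libraries were low, just above control, and the *Notch-RNAi* libraries stood far above both. *Toll-7*, a receptor of the Toll family, ran the other way, with 9.47, 6.98 and 5.73 FPKM in *gro-RNAi*, against 0.353, 0.281 and 1.71 FPKM in *Notch-RNAi* (log2 difference 3.44 ± 0.55 SE, adjusted p = 0.011). *spz* and *Toll-7* belong to no list and were picked after their values were seen, as were *pyr*, *ths*, *otk*, *otk2*, *fra*, *Ret* and *jeb* in the next 2 paragraphs.

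Both ligands of the fibroblast growth factor receptor Heartless were higher in *gro-RNAi*. *pyr* (Pyramus) had 18.8, 19.6 and 19.5 FPKM in *gro-RNAi*, against 1.24, 1.85 and 7.09 FPKM in *Notch-RNAi* and 17.5, 11.3 and 11.8 FPKM in control (log2 difference 2.87 ± 0.53 SE, adjusted p = 0.017), and *Notch-RNAi* replicate 3 was nearest to the other groups. *ths* (Thisbe) had 1.43, 3.24 and 2.65 FPKM in *gro-RNAi*, against 0.321, 0.310 and 0.511 FPKM in *Notch-RNAi* and 0.810, 1.14 and 0.785 FPKM in control (log2 difference 2.35 ± 0.38 SE, adjusted p = 0.01). In both genes the *Notch-RNAi* libraries were below all others. The surface proteins *otk*, *otk2*, *fra* and *Ret* were picked because they were higher in *gro-RNAi*, and receptors as a class were not counted. *otk* (Off-track), a transmembrane protein related to receptor kinases, had 13.1, 17.0 and 14.8 FPKM in *gro-RNAi*, against 1.77, 1.86 and 1.58 FPKM in *Notch-RNAi* (3.03, adjusted p = 1.0e-04). Its paralog *otk2* had 1.34, 1.96 and 1.92 FPKM in *gro-RNAi*, against 0.272, 0.263 and 0.368 FPKM in *Notch-RNAi* (2.19, adjusted p = 0.012). The groups were well apart in both. *fra* (Frazzled), the netrin receptor, had 59.8, 70.9 and 43.5 FPKM in *gro-RNAi*, against 14.999, 19.7 and 21.7 FPKM in *Notch-RNAi* (1.61, adjusted p = 0.021). The receptor tyrosine kinase gene *Ret* had 2.82, 2.11 and 2.52 FPKM in *gro-RNAi*, against 0.200, 0.178 and 0.201 FPKM in *Notch-RNAi* (3.13, adjusted p = 0.014), and it overlaps *Mcm10* on the other strand, which was higher as well. *sli* (Slit), the ligand of the Robo receptors, had 12.02, 8.95 and 5.99 FPKM in *gro-RNAi*, against 1.30, 1.57 and 1.19 FPKM in *Notch-RNAi* (2.60, adjusted p = 0.016). It was the only called gene of 6 tested in its pathway, beside 2.6% called higher over all genes. *sli* overlaps *CG33463* on the same strand, which was higher as well (3.78, adjusted p = 0.0064). With *gro-RNAi* replicate 1 and *Notch-RNAi* replicate 3 left out, *sli* (adjusted p = 0.073), *fra* (0.063) and *Ret* (0.052) missed the threshold. *jeb*, the ligand of the Alk receptor, was lower in *gro-RNAi*, at 1.02, 0.581 and 0.758 FPKM in *gro-RNAi*, against 3.26, 3.51 and 2.08 FPKM in *Notch-RNAi* (-1.78, adjusted p = 0.023).

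In the EGFR pathway 4 of 25 tested genes were called lower and 0 higher in *gro-RNAi*, beside 2.6% called higher and 4.86% called lower over all genes, and the median was -0.19 beside -0.18. *rho* and *ru* encode the proteases Rhomboid and Roughoid that release the ligands of the receptor. *rho* had 23.8, 26.3 and 19.9 FPKM in *gro-RNAi*, against 82.3, 122 and 46.1 FPKM in *Notch-RNAi* and 15.8, 17.7 and 12.98 FPKM in control (-1.74, adjusted p = 0.017). *ru* had 0.0845, 0 and 0 FPKM in *gro-RNAi*, against 0.770, 0.656 and 0.251 FPKM in *Notch-RNAi* (-2.32, adjusted p = 0.032), which were 2, 0 and 0 reads in *gro-RNAi* and 23, 18 and 8 reads in *Notch-RNAi*. *ru* passed the filter only through the *Notch-RNAi* libraries, so its call is no separate support for a difference. Both genes overlap *Ptp61F* on the other strand, which was not called (log2 difference -0.20, adjusted p = 0.51). *kek1*, an inhibitor of the receptor that the pathway induces, had 1.61, 1.92 and 2.39 FPKM in *gro-RNAi*, against 11.6, 13.6 and 4.74 FPKM in *Notch-RNAi* (-2.17, adjusted p = 0.031). *edl*, a modulator of the ETS factors of the pathway, had 79.6, 46.1 and 42.1 FPKM in *gro-RNAi*, against 150.2, 149 and 102 FPKM in *Notch-RNAi* (-1.29, adjusted p = 0.046). The ligands themselves were not called. *spi* (Spitz) had 242, 236 and 177 FPKM in *gro-RNAi*, against 276, 245 and 317 FPKM in *Notch-RNAi* (-0.36, adjusted p = 0.26). *vn* (Vein) was above *Notch-RNAi* in all *gro-RNAi* libraries, at 54.2, 75.3 and 55.7 FPKM in *gro-RNAi*, against 31.2, 40.4 and 10.1 FPKM in *Notch-RNAi* (1.38, adjusted p = 0.1). *Krn* (Keren) and the receptor gene *Egfr* overlapped between the groups. *rau*, an adaptor of receptor tyrosine kinase signalling in the eye, which was named after its values were seen, had 203, 282 and 232 FPKM in *gro-RNAi*, against 14.8, 11.8 and 91.2 FPKM in *Notch-RNAi* and 186, 105 and 103 FPKM in control (3.23, adjusted p = 0.024).

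In the JAK-STAT pathway, *upd2*, a cytokine that activates the receptor Domeless, had 46.9, 41.4 and 29.0 FPKM in *gro-RNAi*, against 415, 416 and 132 FPKM in *Notch-RNAi* and 36.9, 14.8 and 17.7 FPKM in control (log2 difference -2.89 ± 0.48 SE, adjusted p = 0.013). The groups did not overlap, although *Notch-RNAi* replicate 3 was far below the other *Notch-RNAi* libraries. The related *upd3* overlapped, at 70.2, 78.9 and 65.6 FPKM in *gro-RNAi* and 112, 126 and 72.1 FPKM in *Notch-RNAi*. The feedback inhibitor *Socs36E* had 153, 105 and 89.0 FPKM in *gro-RNAi*, against 208, 248 and 168 FPKM in *Notch-RNAi* without a call (-0.87, adjusted p = 0.11). Of the 14 tested genes of the pathway, *Stat92E* was called higher and *upd2* lower, beside 2.6% and 4.86% over all genes. In the other pathways few genes were called, beside the same shares of 2.6% higher and 4.86% lower over all genes. The BMP receptor *put* (Punt) was the called gene of 18 tested, higher at 24.8, 19.3 and 16.2 FPKM in *gro-RNAi*, against 8.64, 8.12 and 11.6 FPKM in *Notch-RNAi* (1.08, adjusted p = 0.037). In the Hippo list of 21, the cofactor *Tgi*, which represses Yorkie targets, was higher, at 28.0, 23.1 and 19.8 FPKM in *gro-RNAi*, against 6.99, 9.22 and 9.40 FPKM in *Notch-RNAi* (1.46, adjusted p = 0.016), and *Diap1*, a target of Yorkie, was lower. No gene of 21 in the Wingless pathway was called by limma (5 at an unadjusted p under 0.05), and none of 18 in the Polycomb group (5). The nuclear receptor *Eip78C* was the called gene of 15 in the ecdysone response, at 9.64, 4.89 and 5.24 FPKM in *gro-RNAi*, against 1.44, 1.81 and 2.68 FPKM in *Notch-RNAi* (1.66, adjusted p = 0.031).

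**Figure D3:**
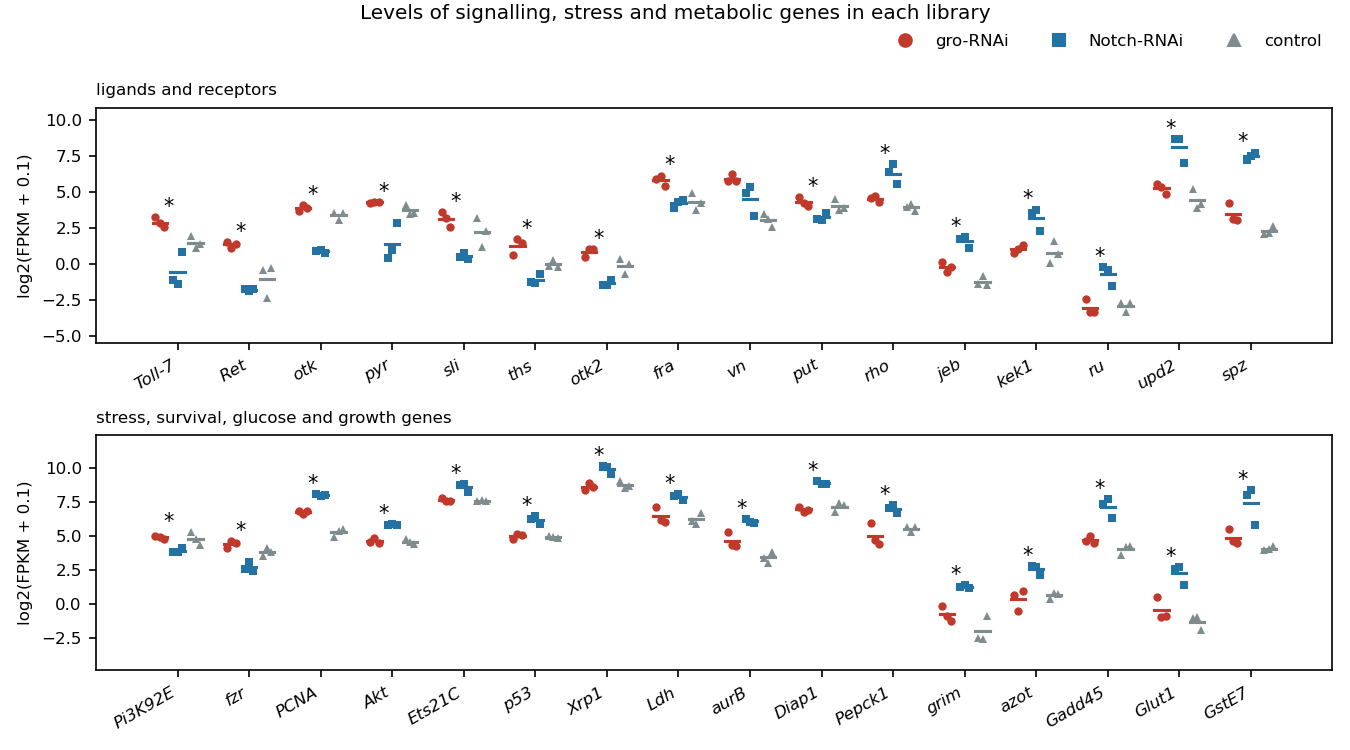
Level of each gene, log2(FPKM + 0.1), in each library, drawn as for the cell type genes: *gro-RNAi* left (red circles), *Notch-RNAi* in the middle (blue squares), control right (grey triangles), a bar at each group mean and a star over called genes. From left to right in the upper panel the genes go from those higher in *gro-RNAi* (*Toll-7*, *otk*, *pyr*) to those higher in *Notch-RNAi* (*upd2*, *spz*). In the lower panel most genes are at or near the control level in *gro-RNAi* and above it in *Notch-RNAi*.

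Of 15 tested genes of cell death and survival, 3 were called lower and 0 higher in *gro-RNAi*, beside 2.6% called higher and 4.86% called lower over all genes, and the list's median was -0.63. *Diap1* (3L, 16038410 to 16051034), the caspase inhibitor that keeps fly cells alive, had 138, 109.6 and 119.8 FPKM in *gro-RNAi*, against 524, 445 and 436 FPKM in *Notch-RNAi* and 106, 172 and 152 FPKM in control (log2 difference -1.94 ± 0.20 SE, adjusted p = 0.0012). *grim*, which promotes death by displacing Diap1 from caspases, had 0.802, 0.428 and 0.327 FPKM in *gro-RNAi*, against 2.26, 2.46 and 2.16 FPKM in *Notch-RNAi* (-2.02, adjusted p = 0.045). *p53*, a transcription factor that answers DNA damage, had 27.6, 34.9 and 33.2 FPKM in *gro-RNAi*, against 75.2, 86.0 and 58.0 FPKM in *Notch-RNAi* (-1.18, adjusted p = 0.0085). *Diap1* and *p53* overlap antisense or other RNAs that were lower as well. The next 5 genes were chosen after their values were seen and stand for no list. *Xrp1*, a bZIP factor of cell competition and translation stress, had 325, 466 and 392.01 FPKM in *gro-RNAi*, against 1100, 1075 and 735 FPKM in *Notch-RNAi* (-1.29, adjusted p = 0.013). *Gadd45*, a stress gene named after a family that answers growth arrest, had 24.01, 32.1 and 21.7 FPKM in *gro-RNAi*, against 164, 205 and 80.2 FPKM in *Notch-RNAi* and 11.7, 18.3 and 19.0 FPKM in control (-2.44, adjusted p = 0.0064). *Ets21C*, an ETS factor downstream of JNK signalling, had 214, 189 and 187 FPKM in *gro-RNAi*, against 434, 439 and 299 FPKM in *Notch-RNAi* (-0.97, adjusted p = 0.015). The *gro-RNAi* and *Notch-RNAi* libraries did not overlap in any gene named in this paragraph. *azot*, a gene of less fit cells in cell competition, had 1.43, 0.587 and 1.79 FPKM in *gro-RNAi*, against 6.86, 6.49 and 4.27 FPKM in *Notch-RNAi* (-2.22, adjusted p = 0.016). *puc*, the phosphatase that answers JNK signalling, did not pass the test, with 129.8, 113 and 76.8 FPKM in *gro-RNAi*, against 226, 271 and 165 FPKM in *Notch-RNAi* (-1.05, adjusted p = 0.1). For all of *Diap1*, *p53*, *Xrp1*, *Ets21C* and *azot*, the log2 difference of *gro-RNAi* over control was between -0.30 and 0.06 and was not called. The median over all tested genes was 0.27. The difference from control was 1.25 for *grim*, 0.68 for *Gadd45* and 0.63 for *puc*, which were not called either (limma, adjusted p = 0.17, 0.27 and 0.31).

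Immune genes differed in single members. Among 22 tested genes of the Imd pathway and peptidoglycan receptors, 1 was called higher and 3 lower, beside 2.6% and 4.86% over all genes. *PGRP-LB*, an enzyme that degrades peptidoglycan, had 558, 789.6 and 681 FPKM in *gro-RNAi*, against 233, 263 and 345 FPKM in *Notch-RNAi* and 576, 866 and 970.0 FPKM in control (1.28, adjusted p = 0.018). *PGRP-SA*, which senses peptidoglycan upstream of Spätzle and Toll, had 2.33, 0.237 and 1.09 FPKM in *gro-RNAi*, against 10.6, 9.58 and 3.51 FPKM in *Notch-RNAi* (-2.86, adjusted p = 0.041). *PGRP-SD*, another secreted receptor, had 72.1, 102 and 99.3 FPKM in *gro-RNAi*, against 256, 301 and 153 FPKM in *Notch-RNAi* (-1.33, adjusted p = 0.019). *pirk*, an inhibitor of the Imd receptor, had 253, 187 and 147 FPKM in *gro-RNAi*, against 388, 392.1 and 317 FPKM in *Notch-RNAi* (-0.93, adjusted p = 0.029). Of 14 tested antimicrobial peptides only *CecA2* was called, listed at 0 in all *gro-RNAi* and control libraries and at 1.44, 1.96 and 0.337 FPKM in *Notch-RNAi*, which were 4, 5 and 1 reads. *CecA2* passed the filter only through the *Notch-RNAi* libraries, so its call is no separate support for a difference. None of 20 heat shock genes was called by limma, and 2 had an unadjusted p under 0.05.

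Of 18 tested genes of glycolysis and its links, 4 were called lower and 0 higher in *gro-RNAi*, beside 2.6% called higher and 4.86% called lower over all genes. The glucose transporter *Glut1* had 1.29, 0.399 and 0.449 FPKM in *gro-RNAi*, against 5.93, 6.40 and 2.53 FPKM in *Notch-RNAi* and 0.387, 0.421 and 0.160 FPKM in control (log2 difference -2.69 ± 0.53 SE, adjusted p = 0.022). The hexokinase *Hex-A* had 26.1, 15.7 and 19.3 FPKM in *gro-RNAi*, against 58.3, 71.1 and 31.7 FPKM in *Notch-RNAi* (-1.35, adjusted p = 0.034). *Ldh*, the lactate dehydrogenase, had 139, 70.04 and 65.4 FPKM in *gro-RNAi*, against 238, 265 and 196 FPKM in *Notch-RNAi* (-1.42, adjusted p = 0.032). In *Glut1*, *Hex-A*, *Ldh* and the next gene, *Pepck1*, replicate 1 was the highest of the *gro-RNAi* libraries. *Pepck1*, an enzyme of gluconeogenesis, had 59.9, 26.3 and 21.2 FPKM in *gro-RNAi*, against 129.7, 152 and 99.3 FPKM in *Notch-RNAi* (-1.95, adjusted p = 0.016). The median of the list was -0.22, beside -0.18 over all genes. In the redox list 2 of 22 were called, both lower and both glutathione transferases, beside 4.86% called lower over all genes. *GstE7* had 44.9, 23.8 and 22.3 FPKM in *gro-RNAi*, against 261, 331 and 54.6 FPKM in *Notch-RNAi* (-2.54, adjusted p = 0.036), with *Notch-RNAi* replicate 3 nearest to *gro-RNAi*. *GstD5* had 37.0, 15.8 and 9.67 FPKM in *gro-RNAi*, against 62.3, 62.2 and 43.2 FPKM in *Notch-RNAi* (-1.62, adjusted p = 0.050). These transferases come in clusters of similar copies, whose reads can be split between them. In the insulin and TOR list of 19, *Akt*, the kinase in the middle of the pathway, had 23.5, 28.4 and 22.5 FPKM in *gro-RNAi*, against 55.5, 58.8 and 54.4 FPKM in *Notch-RNAi* (-1.19, adjusted p = 0.0044). *Pi3K92E*, the catalytic subunit above it, had 31.2, 29.9 and 27.0 FPKM in *gro-RNAi*, against 13.8, 13.9 and 17.2 FPKM in *Notch-RNAi* (0.97, adjusted p = 0.04). Genes of lipid stores, chosen after their values were seen, went in opposite directions. *Lsd-1*, a perilipin of lipid droplets, had 0.371, 1.09 and 0.548 FPKM in *gro-RNAi*, against 7.42, 7.44 and 5.37 FPKM in *Notch-RNAi* (-3.24, adjusted p = 0.0062). *Dgat2*, an enzyme of triglyceride synthesis, had 16.3, 4.48 and 3.17 FPKM in *gro-RNAi*, against 0.194, 0.264 and 0.591 FPKM in *Notch-RNAi* (3.90, adjusted p = 0.027), *gro-RNAi* replicate 1 being the highest.

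Genes of DNA replication lay above control in both depletions, and 4 of them were called between the depletions, 3 lower and 1 higher in *gro-RNAi*. The shares called over all genes were 4.86% lower and 2.6% higher. The 39 tested DNA replication genes had a median log2 difference over control of 1.27 in *gro-RNAi* and 1.54 in *Notch-RNAi*, beside 0.27 and 0.46 over all genes. Between the depletions the median was -0.40, and -0.26 with libraries centred on the same median. In 20 of the 39 genes all *gro-RNAi* libraries were lower than all *Notch-RNAi* libraries and in 2 all were higher, beside 22.3% and 10.9% of all genes. Among those called, *PCNA*, the sliding clamp of the polymerase, had 111, 98.2 and 110.5 FPKM in *gro-RNAi*, against 271, 239 and 249 FPKM in *Notch-RNAi* and 29.9, 41.4 and 44.0 FPKM in control (-1.25, adjusted p = 0.0051). The others were *RnrL* (-0.69) and *RfC4* (-0.78), lower, and *Mcm10*, which had 5.69, 8.29 and 6.70 FPKM in *gro-RNAi*, against 0.720, 0.553 and 1.26 FPKM in *Notch-RNAi* (2.94, adjusted p = 0.0051). *Mcm10* overlaps *Ret* on the other strand, so reads of these genes cannot be told apart. *RnrL* and *RfC4* were no longer called after centring (adjusted p = 0.13 and 0.076).

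Of 45 tested genes of mitosis and cytokinesis, 5 were called lower and 1 higher, beside 4.86% and 2.6% over all genes. The median was -0.25, close to the -0.18 over all genes. The kinase *aurB*, which corrects the attachment of chromosomes, had 37.8, 19.5 and 19.4 FPKM in *gro-RNAi*, against 73.8, 64.0 and 61.1 FPKM in *Notch-RNAi* and 10.5, 8.06 and 14.1 FPKM in control (-1.44, adjusted p = 0.024). Its partner *Incenp* (-0.80), the cytokinesis gene *pbl* (-0.997), the kinesin *ncd* (-0.68) and *gammaTub23C* (-0.99) were lower by smaller amounts, and of these only *gammaTub23C* was still called after centring. *twe*, a phosphatase of the Cdc25 family known from meiosis, was higher, at 43.0, 34.3 and 23.5 FPKM in *gro-RNAi*, against 6.70, 7.08 and 7.98 FPKM in *Notch-RNAi* and 57.5, 17.6 and 26.0 FPKM in control (2.16, adjusted p = 0.017). *stg*, the Cdc25 phosphatase of mitosis, overlapped at 58.0, 21.5 and 23.97 FPKM in *gro-RNAi* and 24.95, 27.3 and 23.8 FPKM in *Notch-RNAi*. Among 13 regulators of entry into S phase only *fzr* was called, an activator of the anaphase-promoting complex that takes cells into endocycles, with 17.1, 24.1 and 22.1 FPKM in *gro-RNAi*, against 5.93, 8.45 and 5.26 FPKM in *Notch-RNAi* (1.69, adjusted p = 0.0078). *CycE*, the cyclin of S phase entry, overlapped at 2.38, 1.41 and 1.10 FPKM in *gro-RNAi* and 1.01, 1.78 and 1.347 FPKM in *Notch-RNAi*, as did the growth regulator *Myc* at 157, 191 and 178 FPKM in *gro-RNAi* and 112, 167 and 108 FPKM in *Notch-RNAi*.

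Large protein complexes differed by small amounts. In 34 of 71 mitochondrial ribosomal protein genes and in 22 of 36 proteasome genes all *gro-RNAi* libraries were the lower ones, beside 22.3% of all genes, and the medians were -0.38 and -0.40. After centring they were -0.24 and -0.27. Only 4 mitochondrial ribosomal genes were called, all lower (*mRpS29*, *mRpL43*, *mRpS24* and *mRpL32*, log2 -0.95 to -0.78), beside 4.86% called lower over all genes. After centring *mRpS24* (adjusted p = 0.093) and *mRpL32* (adjusted p = 0.11) missed the threshold. The 86 cytosolic ribosomal protein genes had no called member (limma, 8 at an unadjusted p under 0.05) and a median of -0.12, which was 0.02 after centring. Nucleolar growth genes stood at 0.25 with none called of 21 (3 at an unadjusted p under 0.05). The respiratory chain had 1 gene called higher (*ATPsynC*, 0.71) and 1 lower (*ND-B14.5A*, -1.31) of 78, beside 2.6% and 4.86% over all genes. Neither was called after centring (adjusted p = 0.060 and 0.097). None of 22 septate junction genes was called (4 at an unadjusted p under 0.05), and none of 11 dosage compensation genes (1). Of 44 translation factors, the cap-binding *eIF4E1* was called, beside 2.6% called higher over all genes. It had 322, 358 and 377 FPKM in *gro-RNAi*, against 216, 149.9 and 238 FPKM in *Notch-RNAi* (0.83, adjusted p = 0.031).

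**Figure D4:**
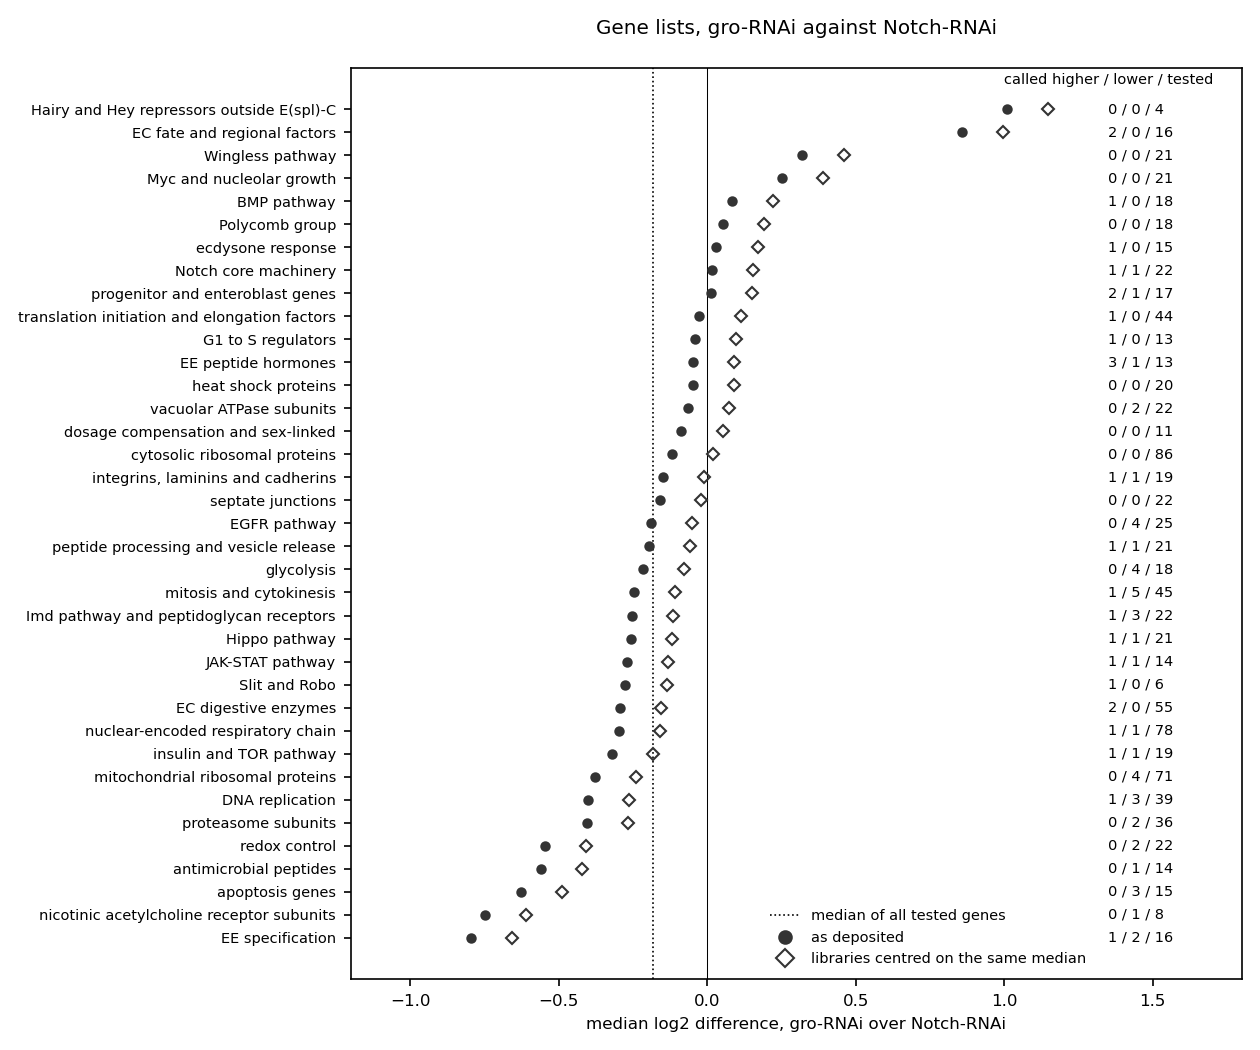
Median log2 difference of *gro-RNAi* over *Notch-RNAi* (horizontal axis) for each gene list (vertical axis), from the values as deposited (filled circles) and with all libraries centred on the same median (open diamonds). The dotted line marks the median of all tested genes, and the numbers at the right count members called higher, called lower and tested. The *E(spl)-C* (3.07), which lies outside the axis, and the small nucleolar RNAs are left out.

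Several single genes of channels, carriers and acid handling, which belong to no list, were higher in *gro-RNAi*, and the class as a whole was not counted. *Drip*, an aquaporin, had 9.10, 8.85 and 7.12 FPKM in *gro-RNAi*, against 0.134, 0.279 and 0.445 FPKM in *Notch-RNAi* and 7.88, 4.61 and 7.91 FPKM in control (log2 difference 4.53 ± 0.36 SE, adjusted p = 2.1e-04). The other genes given here were picked after their values were seen. *CAH1*, a carbonic anhydrase, had 29.2, 43.5 and 40.2 FPKM in *gro-RNAi*, against 6.35, 2.84 and 2.27 FPKM in *Notch-RNAi* and 45.3, 46.5 and 36.3 FPKM in control (3.39, adjusted p = 0.0013). It overlaps *Adat1* on the other strand, which was higher as well (1.25, adjusted p = 0.033). *Ih*, a channel opened by hyperpolarization, had 29.5, 18.1 and 17.2 FPKM in *gro-RNAi*, against 2.10, 2.19 and 3.25 FPKM in *Notch-RNAi* (3.03, adjusted p = 0.0013). The cotransporter *Ncc69* had 9.35, 6.996 and 7.57 FPKM in *gro-RNAi*, against 1.31, 1.07 and 1.86 FPKM in *Notch-RNAi* (2.44, adjusted p = 0.0042). The *Notch-RNAi* libraries were the lowest of the 9 in each of these. The potassium channel *Irk3* had 2.98, 3.47 and 3.79 FPKM in *gro-RNAi*, against 0.262, 0.613 and 0.834 FPKM in *Notch-RNAi* (2.49, adjusted p = 0.0091). *Shal*, another potassium channel, had 8.90, 9.27 and 6.55 FPKM in *gro-RNAi*, against 1.18, 1.11 and 2.13 FPKM in *Notch-RNAi* (2.45, adjusted p = 0.0078). None of these 6 genes was called between *gro-RNAi* and control. Against control the log2 differences in *Notch-RNAi* were -4.20 for *Drip*, -3.58 for *CAH1*, -2.17 for *Ih* and -2.16 for *Ncc69*, all called. The receptor for allatostatin A, *AstA-R2*, followed the same pattern at a low level, with 1.04, 1.67 and 1.32 FPKM in *gro-RNAi*, against 0.129, 0.280 and 0.0838 FPKM in *Notch-RNAi* and 1.348, 0.906 and 1.15 FPKM in control (2.49, adjusted p = 0.0088).

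Transcription factors outside the lists, picked after their values were seen, fell on both sides. *bowl*, a zinc-finger factor of the Odd-skipped family, had 42.3, 24.4 and 27.8 FPKM in *gro-RNAi*, against 1.504, 1.85 and 6.95 FPKM in *Notch-RNAi* and 27.5, 13.6 and 16.6 FPKM in control (log2 difference 3.45 ± 0.53 SE, adjusted p = 0.009). The homeobox genes *vnd* and *tup* were higher as well, with 9.57, 10.5 and 9.10 FPKM in *gro-RNAi*, against 3.59, 3.81 and 4.59 FPKM in *Notch-RNAi* for *vnd* (1.26, adjusted p = 0.02). *tup* had 1.41, 1.13 and 0.773 FPKM in *gro-RNAi*, against 0.157, 0.209 and 0.279 FPKM in *Notch-RNAi* (1.92, adjusted p = 0.029). On the other side, the bHLH gene *Fer1* had 2.73, 1.001 and 1.99 FPKM in *gro-RNAi*, against 12.7, 11.2 and 10.5 FPKM in *Notch-RNAi* (-2.63, adjusted p = 0.0051). The zinc-finger gene *Kr* had 0.490, 0.264 and 0.283 FPKM in *gro-RNAi*, against 1.87, 2.18 and 1.11 FPKM in *Notch-RNAi* (-2.02, adjusted p = 0.023). *sug*, another zinc-finger gene, had 4.52, 2.82 and 2.51 FPKM in *gro-RNAi*, against 17.3, 15.3 and 6.55 FPKM in *Notch-RNAi* (-1.89, adjusted p = 0.028). A pair of surface proteins was at 0.168 FPKM or less in every *gro-RNAi* and control library. Both passed the filter only through the *Notch-RNAi* libraries, where they were high, so their p-values are no separate support for a difference. *fw* (Furrowed), a protein of the selectin type that was picked after its values were seen, had 0.0490, 0.0598 and 0.168 FPKM in *gro-RNAi*, against 5.31, 5.62 and 4.77 FPKM in *Notch-RNAi* and 0.0940, 0.0401 and 0.0219 FPKM in control (log2 difference -4.84 ± 0.38 SE, adjusted p = 2.0e-04). *Cad99C*, a cadherin known from microvilli of follicle cells, had 0.0617, 0.0904 and 0.0518 FPKM in *gro-RNAi*, against 5.50, 5.60 and 2.03 FPKM in *Notch-RNAi* and 0.0775, 0.0137 and 0.0600 FPKM in control (log2 difference -4.61 ± 0.46 SE, adjusted p = 0.0011). The integrin subunit *Itgbn* was higher in *gro-RNAi* than in *Notch-RNAi* and below control in all libraries, at 14.9, 17.2 and 17.1 FPKM in *gro-RNAi*, against 6.66, 8.01 and 9.44 FPKM in *Notch-RNAi* and 29.95, 29.0 and 19.7 FPKM in control (1.03, adjusted p = 0.026).

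Among the most abundant RNAs, several genes known by number alone differed strongly, and they too were picked after the values were seen, as were *Arc1* and *ect*. *CG3348* had 363, 149 and 168 FPKM in *gro-RNAi*, against 2450, 2629 and 1435 FPKM in *Notch-RNAi* and 112, 156 and 125 FPKM in control (-3.33, adjusted p = 0.0014). *CG45061* had 183, 189 and 281 FPKM in *gro-RNAi*, against 2949, 3313 and 922 FPKM in *Notch-RNAi* (-3.29, adjusted p = 0.0062), and the adjoining *CG45060* differed by -2.79 (adjusted p = 0.0046). *CG8620* had 253, 475 and 369 FPKM in *gro-RNAi*, against 2648, 2608 and 1441 FPKM in *Notch-RNAi* (-2.60, adjusted p = 0.0069). In all 4 the *Notch-RNAi* libraries were far above both other groups, and replicate 3 was the lowest of them. *Arc1*, which encodes a capsid-like protein that carries RNA between cells, had 177, 91.4 and 91.3 FPKM in *gro-RNAi*, against 565, 596 and 343 FPKM in *Notch-RNAi* (-2.10, adjusted p = 0.012). On the other side, *CG43051* had 688, 604 and 499 FPKM in *gro-RNAi*, against 167, 127 and 178 FPKM in *Notch-RNAi* (1.93, adjusted p = 0.0022). *ect*, a gene of ectodermal tissue, had 27.7, 19.7 and 19.4 FPKM in *gro-RNAi*, against 1.23, 1.23 and 1.498 FPKM in *Notch-RNAi* and 7.46, 5.77 and 7.68 FPKM in control (3.96, adjusted p = 4.3e-05). The unnamed gene FBgn0085364 had 72279, 27802 and 76900 FPKM in *gro-RNAi*, against 13613, 12796 and 1671 FPKM in *Notch-RNAi*, called with adjusted p = 0.045 but not without *gro-RNAi* replicate 1 (adjusted p = 0.093).

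Several genes known from the testis were higher in *Notch-RNAi*. Of these, *S-Lap1* and *Dic61B* belong to no list and were picked after their values were seen. Testis genes were not counted as a class beyond the 12 given last. *S-Lap1*, an aminopeptidase-like protein of sperm, had 0.0351, 0.193 and 0.147 FPKM in *gro-RNAi*, against 11.1, 8.99 and 4.59 FPKM in *Notch-RNAi* and 0.0441, 0 and 0.0854 FPKM in control (log2 difference -5.19 ± 0.48 SE, adjusted p = 6.2e-04). *Prtl99C*, a protamine-like protein, was listed at 0 in all *gro-RNAi* and control libraries and at 9.70, 8.14 and 2.39 FPKM in *Notch-RNAi* (adjusted p = 5.1e-04). It lies before *Cad99C* on the same strand of 3R, at 29835950 to 29837447 against 29841657 to 29854699. A link between these genes was not tested. *Dic61B*, an axonemal dynein chain, had 0.251, 0.102 and 0.234 FPKM in *gro-RNAi*, against 3.10, 2.43 and 2.15 FPKM in *Notch-RNAi* (-3.19, adjusted p = 0.0054). The 2 called genes of the proteasome list were testis paralogs of a subunit. *Prosbeta5R1* was listed at 0 in *gro-RNAi* and at 1.13, 0.837 and 0.555 FPKM in *Notch-RNAi* (adjusted p = 0.021), which were 19, 13 and 10 reads. *Prosbeta5R2* was at 0 in *gro-RNAi* and control and at 0.365, 0.663 and 0.171 FPKM in *Notch-RNAi*, or 6, 10 and 3 reads, and entered the test through the deeper *Notch-RNAi* libraries alone. *S-Lap1*, *Prtl99C*, *Prosbeta5R1* and, below, *Vha14-2* also passed the filter only through the *Notch-RNAi* libraries. The p-values of these genes are therefore no separate support for a difference. Of 22 vacuolar ATPase subunits 2 were called, both lower, beside 4.86% called lower over all genes, and these were also paralogs of low level. *Vha36-3* had 1.30, 1.06 and 0.809 FPKM in *gro-RNAi*, against 4.01, 2.93 and 2.52 FPKM in *Notch-RNAi* (-1.49, adjusted p = 0.023), and *Vha14-2* had 0, 0 and 0.0688 FPKM in *gro-RNAi*, against 0.723, 0.508 and 0.584 FPKM in *Notch-RNAi* (adjusted p = 0.018). The defining genes of the male germline were at or near 0 in all groups. Over 12 of them, among them *betaTub85D*, *ProtA*, *ProtB*, *aly* and *can*, the sum was 0.266 to 1.12 FPKM in *gro-RNAi*, 0.271 to 1.90 FPKM in *Notch-RNAi* and 0.184 to 0.689 FPKM in control, none of the 3 that were tested was called, and the highest single value was 1.12 FPKM. *Mst84Da* and *Mst84Db* were listed at 0 in all 9 libraries. These 12 genes were looked up after the values of *S-Lap1* were seen.

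The 15 largest called differences in each direction were of unequal depth. Those higher in *gro-RNAi* began with *CG34278* (30.4, 3.58 and 6.85 FPKM in *gro-RNAi*, against 0, 0.422 and 0 FPKM in *Notch-RNAi*, adjusted p = 0.03) and included *NPF*, *Tk*, *Drip*, *Mal-A6*, *Mal-A5* and *Dh31*. *lncRNA:CR44538* had 17.0, 21.5 and 25.5 FPKM in *gro-RNAi*, against 0.116, 0.633 and 1.64 FPKM in *Notch-RNAi* and 5.90, 3.27 and 5.18 FPKM in control (5.02, adjusted p = 0.004). The predicted protease gene *CG11842* had 9.67, 14.3 and 12.2 FPKM in *gro-RNAi*, against 0.0585, 0.127 and 1.53 FPKM in *Notch-RNAi* and 18.8, 14.1 and 14.6 FPKM in control (4.95, adjusted p = 0.0075). *CG5348* was far above both other groups, at 5.996, 13.6 and 10.6 FPKM in *gro-RNAi*, against 0.634, 0.501 and 0.162 FPKM in *Notch-RNAi* and 0.319, 0.324 and 0.398 FPKM in control (4.30, adjusted p = 0.0014), as was *unc-104*, which it overlaps. *CG16826* lay below control in both depletions, at 0.892, 30.4 and 2.40 FPKM in *gro-RNAi*, against 0.0544, 0.223 and 0.102 FPKM in *Notch-RNAi* and 125, 316 and 593 FPKM in control (adjusted p = 0.048). The others were *CG44476*, *lncRNA:CR45745*, *CG34138* and *lncRNA:CR43704*, with differences of 4.19 to 4.90.

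Of the 15 largest decreases, 10 were short RNAs of 95 to 164 nt that were listed at 0, or at a value that rounds to 0, in every *gro-RNAi* library. The first, the small RNA gene FBgn0065084, was listed at 268, 524 and 145 FPKM in *Notch-RNAi* (adjusted p = 2.9e-06), with no whole number of reads recovered. For the other 9, the steps between low values gave 1 to 5 reads in a *Notch-RNAi* library. *mir-2493* was listed at 0 in *gro-RNAi* and control and at 44.2, 48.1 and 41.4 FPKM in *Notch-RNAi*, which corresponds to 1, 1 and 1 reads. *mir-31b* was at 62.5, 34.0 and 14.6 FPKM in *Notch-RNAi*, or 4, 2 and 1 reads. With fewer reads in the *gro-RNAi* libraries, absence of these RNAs there cannot be told from low level at this depth. Of the 10, 8 lie within another gene on the same strand. Of 258 small nucleolar RNAs 163 reached the mean of 0.1 FPKM, the median member was listed at 0 in *gro-RNAi* replicates 1 and 2 and in all control libraries, and no difference is read from them. Leaving out the 347 tested transcripts under 300 nt, a choice made after seeing the data, gave 332 genes called higher and 649 lower.

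The remaining 5 of these decreases were RNAs of 289 nt or more, and *Cyp6a17* and *CG43210* were the ones called lower than control in *gro-RNAi* too. *Cyp6a17* (2R, 14873953 to 14875739), a cytochrome P450 gene, had 0.201, 0 and 0.0703 FPKM in *gro-RNAi*, against 13.004, 10.1 and 17.2 FPKM in *Notch-RNAi* and 12.7, 8.18 and 7.80 FPKM in control (log2 difference -6.26 ± 0.42 SE, adjusted p = 9.0e-05). The adjoining P450 gene *Cyp6a23* had 491, 80.2 and 49.2 FPKM in *gro-RNAi*, against 19.2, 18.2 and 103.9 FPKM in *Notch-RNAi* and 103, 36.0 and 43.8 FPKM in control, and none of the 4 neighbouring *Cyp6a* genes examined was called. P450 genes of this cluster resemble each other, so reads can be split between them. A difference between the fly stocks at this gene cannot be told apart from the depletion either, and was not tested. *CG14642* had 0.612, 0.325 and 0.257 FPKM in *gro-RNAi*, against 28.7, 26.0 and 15.6 FPKM in *Notch-RNAi* (-5.58, adjusted p = 1.4e-04), and *CG43210* had at most 0.116 FPKM in every *gro-RNAi* library, against 6.11, 7.86 and 4.11 FPKM in *Notch-RNAi* and 1.24, 1.04 and 1.16 FPKM in control (adjusted p = 1.4e-04).

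**Figure D5:**
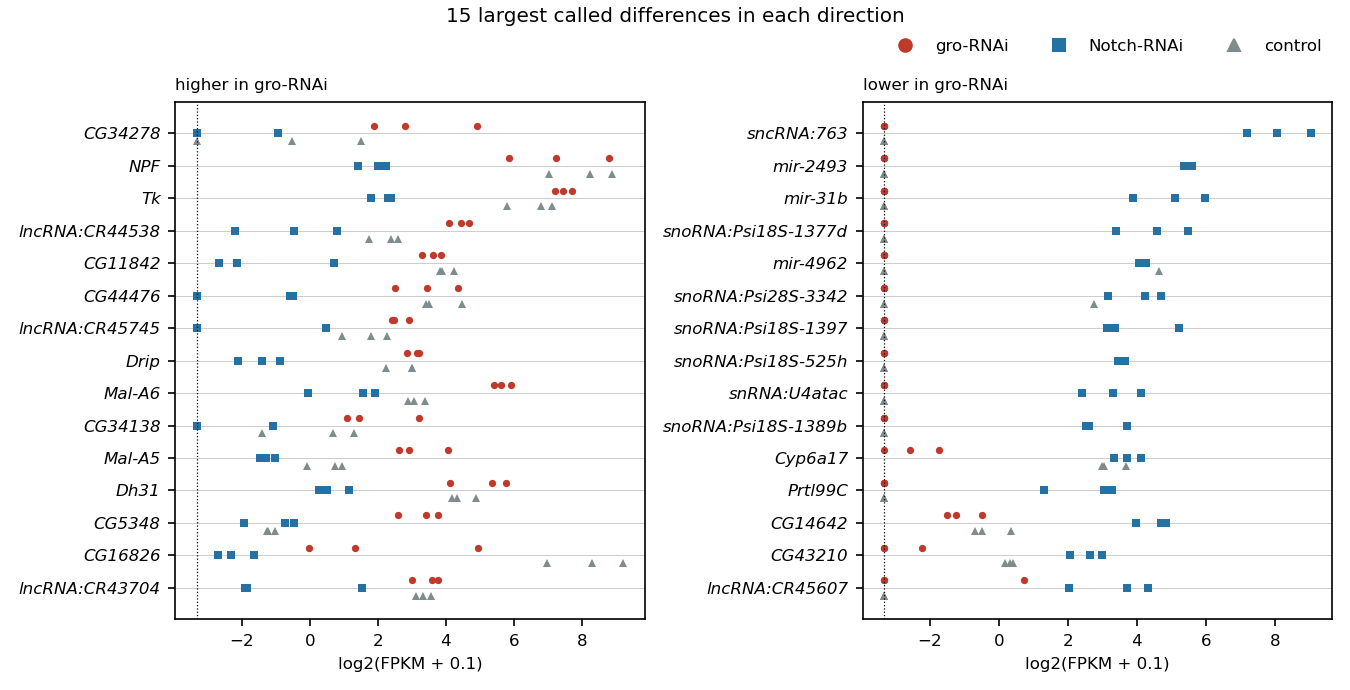
The 15 largest called differences in each direction outside the *E(spl)-C*, with 1 row per gene and 1 point per library, on log2(FPKM + 0.1). Within a row *gro-RNAi* is drawn above (red circles), *Notch-RNAi* in the middle (blue squares) and control below (grey triangles), and the dotted line is the position of a value of 0. In the right panel the first 10 genes are short RNAs at 0 in *gro-RNAi*, and *Cyp6a17* is the gene whose control values lie with *Notch-RNAi*.

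Markers of other cell types had few called genes, beside 2.6% called higher and 4.86% called lower over all genes. Of 12 tested markers of visceral muscle only *Zasp66* was called, at 0.0737, 0.107 and 0.309 FPKM in *gro-RNAi*, against 4.42, 3.33 and 0.953 FPKM in *Notch-RNAi* (-3.37, adjusted p = 0.013), and the list summed to 509 to 734 FPKM in *gro-RNAi*, 485 to 710.0 FPKM in *Notch-RNAi* and 457 to 639 FPKM in control. Of 4 haemocyte markers *lz* was called, a Runx factor, at 0.394, 0.552 and 0.941 FPKM in *gro-RNAi*, against 3.33, 3.86 and 3.22 FPKM in *Notch-RNAi* (-2.36, adjusted p = 0.025), and the lists of trachea (6 tested) and fat body (5 tested) had no called gene (limma, 1 each at an unadjusted p under 0.05). The germline list had *exu* (14.98, 16.1 and 12.3 FPKM in *gro-RNAi*, against 4.77, 3.64 and 8.92 FPKM in *Notch-RNAi*, log2 1.40, adjusted p = 0.04) as its called gene of 6. Summed over their tested members, haemocyte markers were at 47.5 to 68.5 FPKM in *gro-RNAi*, 51.3 to 55.8 FPKM in *Notch-RNAi* and 55.7 to 93.5 FPKM in control. Trachea markers were at 3.57 to 13.7, 9.12 to 11.6 and 10.2 to 15.2 FPKM in the same groups, and fat body and yolk markers at 1.03 to 1.12, 1.90 to 2.19 and 0.810 to 4.47 FPKM. The part of these cell types in the differences above was not tested.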

How the data were processed

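GFP+ cells of adult midguts from 3 *gro-RNAi*, 3 *Notch-RNAi* and 3 control samples had been sequenced. The submitters' notes name STAR 2.5.2b and the build BDGP6, and the deposited table holds FPKM for each gene, normalized by the authors for transcript length and mapped reads. The tool that made the FPKM values, and whether strand was used, are not given in the sources used here. Gene symbols and coordinates came from Ensembl release 115 (genome release 6), and sequences were not used here.

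FPKM values are not counts, so log2(FPKM + 0.1) was modelled in R 4.3.3 by limma 3.58.1 (a trended eBayes on lmFit), with a mean for each group and all 9 libraries in 1 fit, and *gro-RNAi* was contrasted with *Notch-RNAi*. Genes under a mean of 0.1 FPKM were left out, and p-values were adjusted by Benjamini-Hochberg over 11493 genes. A fold change on this scale understates the change of low genes. Depth came from the spacing of small FPKM values in transcripts over 1500 nt, and values within 0.05 of a whole number of reads were taken as whole. A simulation in which 200 genes were changed served to test the fit.

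Named genes were the targeted genes, the 15 largest called differences in each direction outside the *E(spl)-C* (higher group mean of at least 2 FPKM, groups apart), called members of 39 gene lists and 9 marker lists, and defining members of pathways. Others are marked as picked after their values were seen. Members and lists were chosen with earlier results of these data known. Of the list names, 1367 matched a gene and 39 did not. Alternatives were other pseudocounts, filters, scalings, variance models and library sets. By the methods each replicate was a dissection of its own from pooled midguts, which is stated for *gro-RNAi* and control, and for *Notch-RNAi* the source of the replicates is not given in the sources used here. Equal replicate numbers were not used to pair the libraries. Counting error alone does not cover amplification.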

Additional observations from a re-analysis of the deposited data

How the results depend on the processing

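Of the 149 named genes called between *gro-RNAi* and *Notch-RNAi*, 52 were called under each of the 20 alternatives that tested them, and none changed sign. Quantile normalization raised the number called higher to 512, and the fit with the replicate number as a block lowered the number called lower to 335 (201 higher). Deviations of same-numbered *gro-RNAi* and *Notch-RNAi* libraries had correlations of -0.046, -0.015 and -0.043 over all tested genes, which showed no pairing at that level. A batch shared in part of the genes was not tested. With each of the 9 libraries left out in turn, 70 to 325 genes were called higher and 67 to 858 lower, and without both *gro-RNAi* replicate 1 and *Notch-RNAi* replicate 3, chosen after seeing the data, 840 were lower. Of the 149 named calls, 55 and 56 held without *Notch-RNAi* replicates 1 and 2, 71 and 74 without *gro-RNAi* replicates 2 and 3, and 121 to 147 in each setting that kept all libraries and tested them all. Centring the libraries ended 10 of them, among them *RnrL*, *RfC4*, *Incenp*, *pbl*, *ncd* and *TP53INP*. Leaving out a library also leaves fewer samples, and the cause of the lost calls beyond that was not tested. In short RNAs, where 1 read is worth many FPKM, differences were beyond this depth.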

Other observations

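Calls were spread unevenly over the chromosomes, which were looked at after the values were seen. Of 1896 tested genes on the X, 18 were called higher and 122 lower in *gro-RNAi*, with a median log2 difference of -0.27 (-0.14 with libraries centred on the same median). On the other large arms the counts were 67 and 91 of 2053 on 2L, 67 and 101 of 2330 on 2R, 57 and 108 of 2218 on 3L and 83 and 126 of 2710 on 3R, with medians of -0.18 to -0.14. Chromosome 4, with 86 tested genes, had 2 called higher, 1 called lower and a median of 0.13.

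By class of RNA, 271 of the genes called higher and 478 of those called lower were protein-coding, and 23 and 57 of 1029 tested were non-coding RNAs in the annotation's class for these. Genes listed at 0 in every *gro-RNAi* library made up 52 of the 558 called lower, and genes listed at 0 in every *Notch-RNAi* library made up 6 of the 299 called higher.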
